A study of Mus musculus with 6 samples.

Results

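The 10 genes described here encode AMP-activated protein kinase (AMPK), the mTORC1 kinase with its scaffold, and a pair of mTORC1 inhibitors. They were chosen by name: Prkaa1, Prkaa2, Prkab1, Prkab2, Prkag1 and Prkag2 for AMPK, and Mtor, Rptor, Deptor and Ddit4 for mTORC1. Earlier results of these data were known at that choice, so counts of genes that rose or fell are descriptive. Each stood on a single row of the deposited table, which holds 43760 rows in all. Their RNA was measured by sequencing total RNA of 3T3-L1 cells, wild-type mouse fibroblasts kept as a line and widely used as a model of adipocyte formation. Day 7 cells (3 libraries) had been differentiated with IBMX, insulin, dexamethasone and rosiglitazone, and day 0 cells (3 libraries) were harvested undifferentiated. Differentiation, the cocktail and culture time all separate the groups at once and cannot be told apart. All libraries come from a single cell line and the labels do not say whether separate cultures were used. The spread that the p-values rest on is therefore that between these libraries and may be technical.

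AMPK is a kinase that senses a low energy charge. A catalytic alpha subunit, a scaffolding beta subunit that also binds glycogen and a gamma subunit that binds AMP, ADP and ATP form the complex, and each subunit has paralogous genes. AMPK is switched on by the kinase LKB1, slows fat and sterol synthesis by phosphorylating their enzymes, and restrains mTORC1 through the TSC2 protein and through raptor. mTORC1, the nutrient-sensing complex of mTOR and raptor, promotes protein and lipid synthesis and is required for adipocytes to form. Deptor binds mTOR and inhibits it, and Ddit4 (REDD1) inhibits mTORC1 through the TSC complex when cells meet hypoxia, glucocorticoids or other stress.

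The promoters shown are those of the alpha pair, whose balance moved most, and of the beta pair, whose members moved in opposite directions. Each sequence is the 300 bases from 250 before to 50 after the RefSeq gene start (build GRCm38.p6), 5′ to 3′ on the strand of the gene, with GC boxes (GGGCGG on either strand) in capitals. Prkaa2 is at chr4:105109849-105110148 on the minus strand, Prkaa1 at chr15:5143611-5143910 on the plus strand, Prkab2 at chr3:97657962-97658261 on the plus strand and Prkab1 at chr5:116024379-116024678 on the minus strand.
Prkaa2: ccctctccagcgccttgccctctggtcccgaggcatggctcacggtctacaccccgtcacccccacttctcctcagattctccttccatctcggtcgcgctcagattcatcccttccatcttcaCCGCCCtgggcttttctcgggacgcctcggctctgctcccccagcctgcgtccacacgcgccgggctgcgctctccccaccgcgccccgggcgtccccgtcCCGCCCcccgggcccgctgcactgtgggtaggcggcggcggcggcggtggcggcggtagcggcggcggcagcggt
Prkaa1: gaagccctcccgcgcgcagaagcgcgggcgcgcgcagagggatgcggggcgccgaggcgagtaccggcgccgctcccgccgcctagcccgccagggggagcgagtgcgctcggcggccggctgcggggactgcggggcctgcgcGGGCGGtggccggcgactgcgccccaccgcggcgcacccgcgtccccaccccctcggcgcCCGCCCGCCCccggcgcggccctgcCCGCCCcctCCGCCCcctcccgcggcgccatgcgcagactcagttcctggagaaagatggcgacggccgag
Prkab2: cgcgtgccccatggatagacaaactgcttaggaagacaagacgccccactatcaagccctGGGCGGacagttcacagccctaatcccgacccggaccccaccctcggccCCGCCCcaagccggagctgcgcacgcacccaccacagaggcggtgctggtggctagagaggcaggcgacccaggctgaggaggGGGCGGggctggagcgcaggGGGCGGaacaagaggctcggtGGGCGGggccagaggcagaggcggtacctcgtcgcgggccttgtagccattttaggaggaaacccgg
Prkab1: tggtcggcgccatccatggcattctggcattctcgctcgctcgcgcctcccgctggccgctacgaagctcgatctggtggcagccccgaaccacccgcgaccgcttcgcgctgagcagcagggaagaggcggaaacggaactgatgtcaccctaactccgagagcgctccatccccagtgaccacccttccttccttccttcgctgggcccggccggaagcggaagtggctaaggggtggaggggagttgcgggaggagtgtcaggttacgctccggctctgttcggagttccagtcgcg

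The Prkaa2 promoter held 2 GC boxes and the Prkaa1 promoter 5, some overlapping, with GC contents of 72.7% and 82.0%. The Prkab2 promoter held 5 GC boxes and the Prkab1 promoter 0, with GC contents of 68.0% and 65.3%. RefSeq promoters were found for 9 of the 10 genes, all but Deptor. Of the 9, 7 held a GC box, against 35.7% of 32851 mouse promoters of the same length, whose median GC content was 52.7%. A CCAAT box (CCAAT, either strand) lay in promoters of 4 of the 9 genes, Prkag1, Prkag2, Mtor and Ddit4, and in 37.4% of all. Prkag2 has 3 annotated promoters, and a gene was counted when any of its promoters matched. The shares over all mouse promoters count each promoter singly, so the units differ. A TATA box (TATAAA), an E-box (CACGTG), a cAMP response element (TGACGTCA), the PPAR direct repeat and the palindromic glucocorticoid response element, searched on both strands, were in 0 of these windows. These elements were in 13.6%, 7.15%, 1.79%, 0.0396% and 0.00913% of all promoters. No match says only that these letters are not in the window.

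Levels are given as CPM, the counts scaled by TMM to a common library size. Libraries held from 7655822 to 16987076 estimated counts, 3969822 to 9459808 of them outside the 10 most abundant rows. The summed level of 8 adipocyte marker genes was 11800 to 13800 CPM at day 7 and 525 to 557 CPM at day 0. That of 7 preadipocyte and fibroblast markers was 2740 to 4600 CPM at day 7 and 10500 to 12100 CPM at day 0. Those markers of other cells that matched a row were near 0 on both days. At most 1.87 CPM was summed over 4 macrophage genes and 1.42 CPM over 3 endothelial genes. Myod1, Myog, Epcam and Cdh1 had 0 counts in all libraries. The header gives number 1 to all the day 7 columns, and below they go by their order in the table, as the first, the second and the third column. The adipocyte and fibroblast markers moved with every change given here, and their part in it was not tested. In bulk RNA a change per cell and a change in the mix of cells cannot be told apart.

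Of the 10 genes 8 rose at day 7 and 1 fell, while Ddit4 did not pass the test (quasi-likelihood test of edgeR, threshold of 0.05 on p adjusted over all 12354 genes tested). All 10 passed the filter on low counts, but Prkaa2, with 10, 20 and 7 counts at day 0, did so only through its day 7 libraries. Its place among the tested genes thus depended on the day when it was high. Among all tested genes 30.8% rose and 29.2% fell. The median log2 fold change of the 10 was 0.78, against 0.02 for all tested genes. Rises of at least 2-fold were found for 4 genes, Prkaa2, Prkag2, Mtor and Deptor, and for 16.0% of all tested genes. Day 7 and day 0 libraries did not overlap for 9 of the 10 genes. Of these 8 were higher at day 7 and 1 lower, against 34.2% and 34.1% of tested genes, or 68.3% in either direction. With total-count scaling 6 rose and 1 fell, and the median over all tested genes then lay at -0.21.

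**Figure D1:**
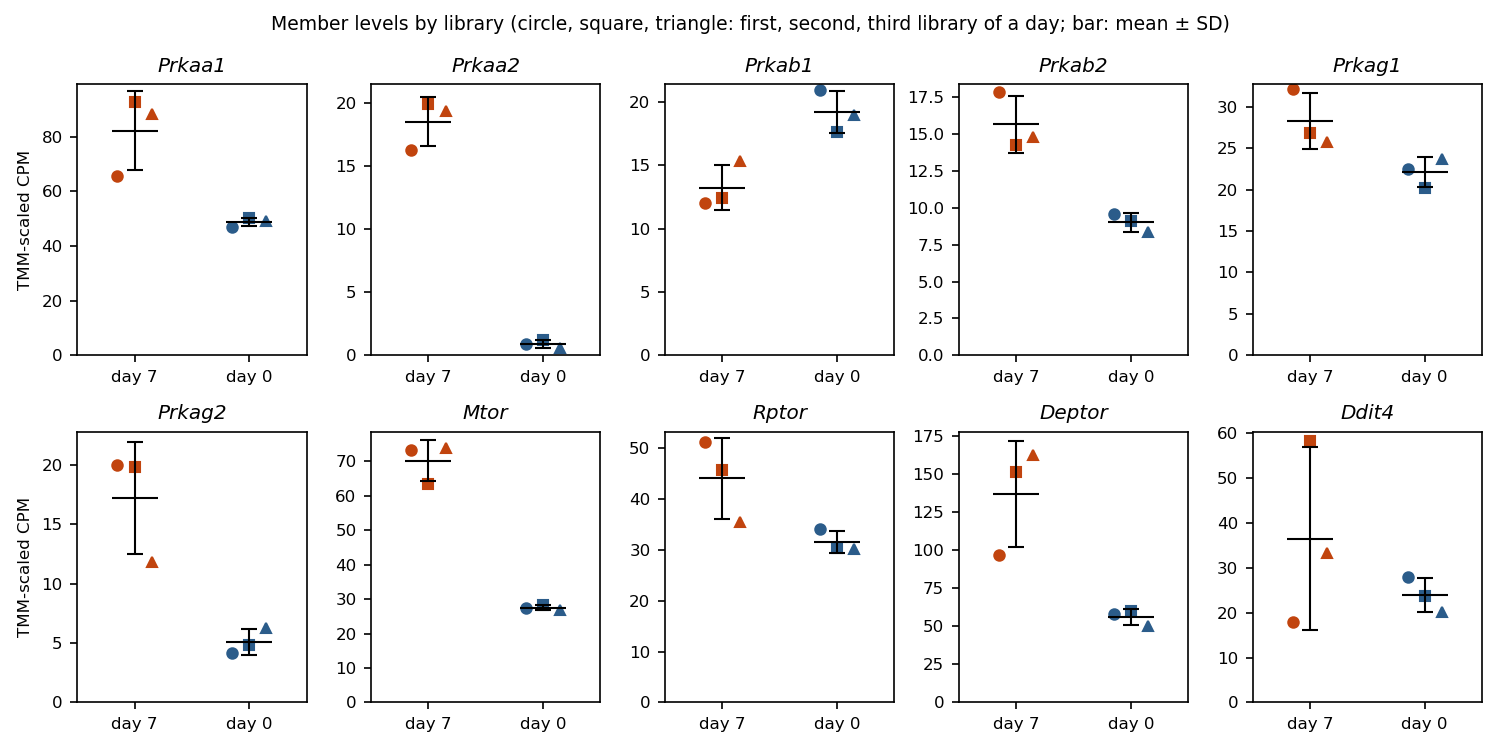
TMM-scaled CPM of the 10 genes in each library, with day 7 on the left and day 0 on the right of each panel and a vertical axis of its own. Points are libraries and bars the mean ± SD of 3. Only Ddit4 has day 7 libraries on both sides of its day 0 libraries, from 17.9 to 58.2 CPM against 20.2 to 27.9 CPM.

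The catalytic alpha subunit genes of AMPK both rose, Prkaa2 far more than Prkaa1. Prkaa2, which encodes alpha 2, the form that predominates in skeletal muscle, lies on chromosome 4 at 105029874 to 105109890 (GRCm38, minus strand, protein coding). It had 16.3, 19.9 and 19.4 CPM in the day 7 columns, in that order, against 0.877, 1.24 and 0.584 CPM in day 0 replicates 1, 2 and 3. Every day 7 library thus lay above every day 0 library, and the day 0 values rest on only 10, 20 and 7 counts, against 287, 196 and 143 counts at day 7. The rise was 19.8-fold (log2 fold change 4.31 ± 0.25, SE; edgeR adjusted p = 1.1e-05), and 97.5% of tested genes had a smaller absolute log2 fold change. Of 4 skeletal muscle markers listed, only 2 matched a row, Myod1 and Myog, and these had 0 counts in every library. Ckm and Actn2 matched no row.

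Prkaa1, which encodes the widely expressed alpha 1, lies on chromosome 15 at 5143861 to 5181899. It had 65.8, 92.6 and 88.4 CPM in the day 7 columns, against 47.1, 50.1 and 49.0 CPM at day 0. The day 7 libraries were all higher, and the first lay nearest to day 0. The rise was 1.69-fold (log2 fold change 0.75 ± 0.14, edgeR adjusted p = 0.0025).

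The beta subunit genes moved in opposite directions. Prkab2, on chromosome 3 at 97658193 to 97673812, had 17.9, 14.3 and 14.8 CPM in the day 7 columns, against 9.56, 9.13 and 8.34 CPM at day 0. It rose 1.74-fold (log2 fold change 0.80 ± 0.14, edgeR adjusted p = 0.0020). Prkab1, on chromosome 5 at 116013586 to 116024508, was the only 1 of the 10 genes that fell. It had 12.0, 12.4 and 15.3 CPM in the day 7 columns, against 20.9, 17.6 and 19.0 CPM at day 0. The groups did not overlap for either gene. The log2 fold change of Prkab1 was -0.54 ± 0.15 (edgeR adjusted p = 0.014), and without day 0 replicate 1 it was -0.49 and no longer passed (edgeR adjusted p = 0.055).

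Of the gamma subunit genes, Prkag2 rose clearly and Prkag1 little. Prkag2, whose human mutations cause a glycogen-storing heart disease, lies on chromosome 5 at 24862744 to 25100642. It had 20.0, 19.8 and 11.8 CPM in the day 7 columns, against 4.12, 4.85 and 6.26 CPM at day 0. The third day 7 column was the lowest of its day but still above all of day 0. The rise was 3.41-fold (log2 fold change 1.77 ± 0.25, edgeR adjusted p = 0.00060). Exons of the antisense gene Prkag2os2 share 795 bases with those of Prkag2, and this gene fell, with 7 counts in total at day 7 and 71 at day 0 (log2 fold change -3.06 ± 0.55, edgeR adjusted p = 0.0020). The library kit marks strand, but whether counting used it is not given in the sources used here, so reads in the shared bases cannot be told apart.

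Prkag1, the widely expressed gamma subunit gene, lies on chromosome 15 at 98812797 to 98831521. It had 32.1, 26.8 and 25.8 CPM in the day 7 columns, against 22.5, 20.2 and 23.7 CPM at day 0. The lowest day 7 library lay just above the highest day 0 library. Its log2 fold change of 0.36 ± 0.13 passed narrowly (edgeR adjusted p = 0.042) and failed under 8 of 14 alternatives, among them DESeq2 (adjusted p = 0.071) and total-count scaling, where it was 0.14 (adjusted p = 0.61). It also failed without any 1 of the day 0 replicates and without the first day 7 column, where it was 0.25 (edgeR adjusted p = 0.12). Prkag3, the remaining AMPK subunit gene, known from skeletal muscle, was near the detection limit, with 0.113, 0.102 and 0.950 CPM in the day 7 columns against 0.965, 0.994 and 0.834 CPM at day 0. It did not pass (log2 fold change -1.58 ± 0.73, edgeR adjusted p = 0.099), but without the third day 7 column, which held 7 of its 10 day 7 counts, it was -2.99 (adjusted p = 0.0026), and limma-voom gave -1.93 (adjusted p = 0.035).

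**Figure D2:**
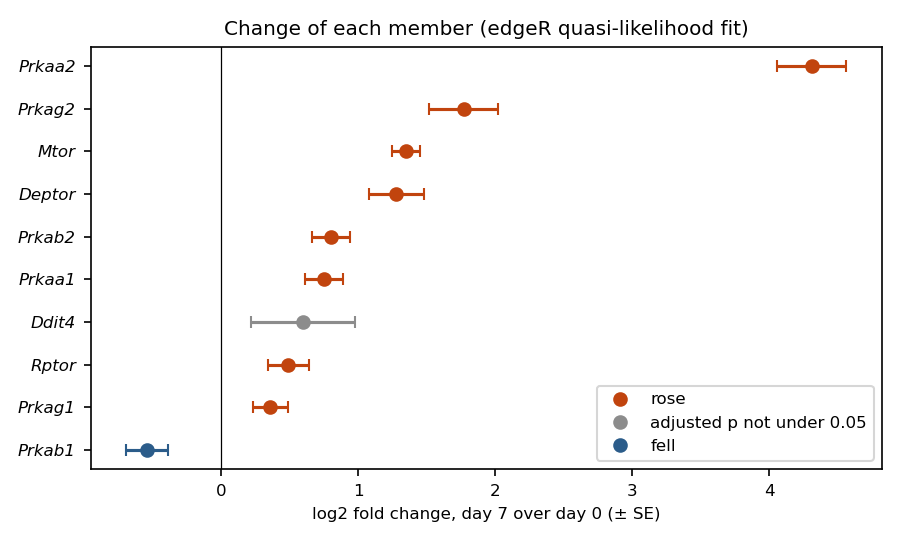
Log2 fold change of day 7 over day 0 with its standard error for each gene, from the fit across all genes. Prkaa2 stands apart at 4.31, Prkab1 alone lies below 0, and Ddit4 in grey has the widest error.

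The balance within each AMPK subunit pair was measured as the ratio of their counts inside a library, which does not depend on how libraries are scaled. The log2 ratio of Prkaa2 to Prkaa1 was -2.01, -2.21 and -2.18 in the day 7 columns and -5.68, -5.30 and -6.29 at day 0, a difference of 3.62 or 12.3-fold. The log2 ratio of Prkab2 to Prkab1 was 0.57, 0.21 and -0.05 at day 7 and -1.12, -0.94 and -1.18 at day 0, a difference of 1.33 or 2.51-fold. That of Prkag2 to Prkag1 was -0.69, -0.43 and -1.12 at day 7 and -2.44, -2.05 and -1.91 at day 0, a difference of 1.39 or 2.62-fold. In all of these pairs the ratio was higher in every day 7 library than in every day 0 library. The exact two-sided permutation test gave p = 0.1 for each, which is the smallest p that 3 against 3 libraries allow, and 6 ratios were tested in all. How often ratios of other gene pairs overlap between days was not computed. Of single tested genes, 68.3% did not overlap, so the lack of overlap is not shown to be particular to these pairs.

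**Figure D3:**
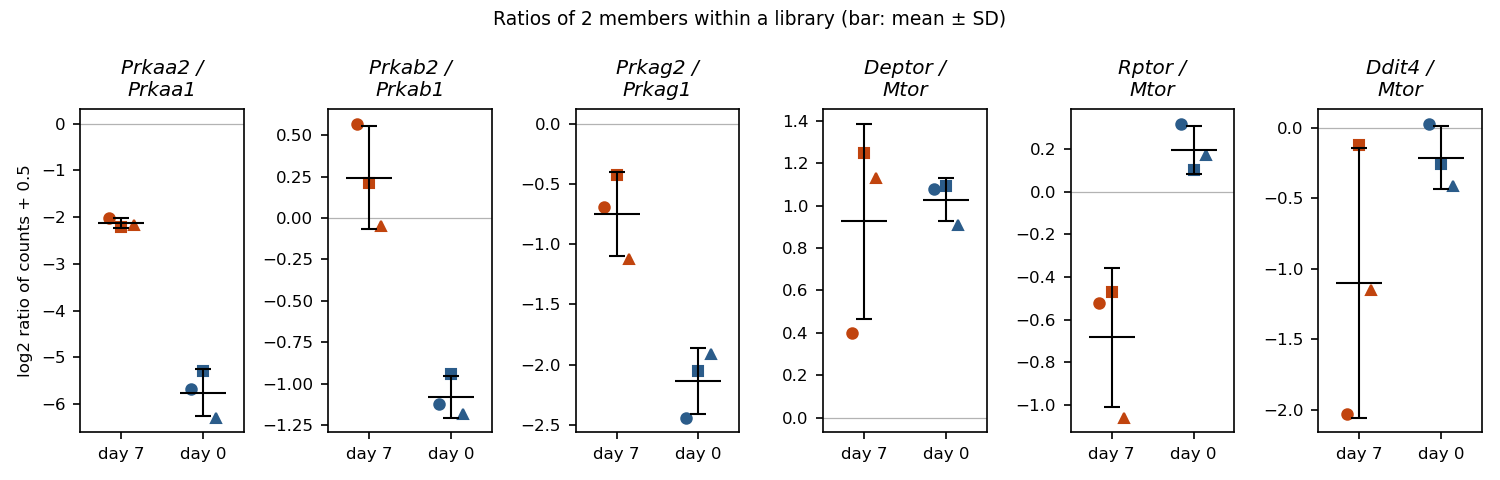
Log2 ratio of the counts (plus 0.5) of 2 genes in each library, day 7 left and day 0 right in each panel, with vertical axes that differ and bars for mean ± SD of 3. The ratios of the AMPK pairs do not overlap between days, while those of Deptor and of Ddit4 to Mtor do. Overlap was not computed for ratios of other gene pairs.

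Levels of different genes were compared as CPM per kilobase of merged exons. By this measure Prkaa2 made up 12.6%, 11.2% and 11.4% of the alpha subunit transcripts in the day 7 columns, against 1.08%, 1.43% and 0.692% at day 0. Prkaa1 was thus the main alpha gene in every library. Prkab2 made up 47.2%, 41.0% and 36.7% of beta transcripts at day 7, against 21.6%, 23.8% and 20.9% at day 0. Prkag2 made up 17.2%, 19.9% and 13.3% of gamma transcripts at day 7, against 5.78%, 7.46% and 8.14% at day 0. Gamma transcripts here are those of Prkag1 and Prkag2, without Prkag3. With the longest annotated transcript as length, the day means for Prkag2 were 23.0% at day 7 and 10.2% at day 0, and those for Prkab2 33.2% at day 7 and 16.4% at day 0. Prkag2 has 10 annotated transcripts, so its length is the least certain of the AMPK genes, while the lengths of Prkaa1 and Prkaa2 did not change with this choice.

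**Figure D4:**
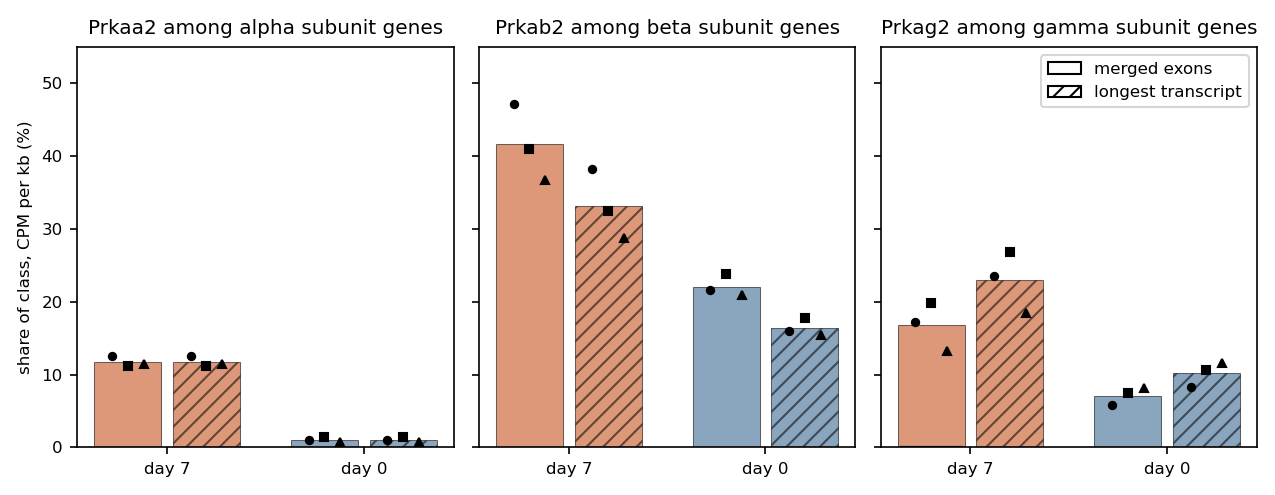
Share of Prkaa2, Prkab2 and Prkag2 in the summed CPM per kilobase of their subunit class, as mean bars with each library as a point, day 7 left of day 0. The gamma class is Prkag1 and Prkag2, without Prkag3. Plain bars use merged exons and hatched bars the longest transcript as length. The shares at day 7 lie above those at day 0 in all 3 classes under both lengths.

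Summed over each class, alpha transcripts stood at 20.0 ± 3.35 CPM per kilobase at day 7 and 10.6 ± 0.344 at day 0 (SD, n = 3 each), a ratio of 1.89. Gamma transcripts, without Prkag3, stood at 15.6 ± 2.10 at day 7 and 11.0 ± 0.912 at day 0, a ratio of 1.43. For both, every day 7 library was above every day 0 library (exact permutation p = 0.1, the smallest possible), as for 34.2% of single tested genes. Beta transcripts stood at 7.40 ± 0.522 at day 7 and 8.02 ± 0.598 at day 0 (exact permutation p = 0.3), and the libraries of the days overlapped. No difference in the beta sum was detectable with 3 against 3 libraries, where the smallest possible p is 0.1. These sums use merged exons, and other lengths or scalings were not run for them.

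On the mTORC1 side, the kinase gene and its inhibitor Deptor rose by similar amounts. Mtor, on chromosome 4 at 148448611 to 148557683, had 73.3, 63.3 and 73.9 CPM in the day 7 columns, against 27.3, 28.2 and 26.8 CPM at day 0. The libraries of a day were close together, and the rise was 2.56-fold (log2 fold change 1.35 ± 0.10, edgeR adjusted p = 3.0e-05). Its log2 fold change ran from 1.13 to 1.42 over 14 alternatives, and it passed in all 14.

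Deptor, on chromosome 15 at 55112317 to 55259271, had 97.0, 151 and 162 CPM in the day 7 columns, against 57.7, 60.0 and 50.2 CPM at day 0. The first day 7 column was the lowest of its day and still above all of day 0. The rise was 2.43-fold (log2 fold change 1.28 ± 0.20, edgeR adjusted p = 0.00092), and it passed under all 14 alternatives. The log2 ratio of Deptor to Mtor was 0.40, 1.25 and 1.13 in the day 7 columns and 1.08, 1.09 and 0.91 at day 0. These overlapped (difference -0.10, exact permutation p = 1.0), and without the first day 7 column the difference was 0.17.

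Rptor, which encodes raptor, the scaffold that brings substrates to mTORC1, lies on chromosome 11 at 119602905 to 119899576. It had 51.1, 45.7 and 35.4 CPM in the day 7 columns, against 34.0, 30.3 and 30.1 CPM at day 0. The third day 7 column was barely above the highest day 0 library. The rise was 1.41-fold (log2 fold change 0.49 ± 0.15, edgeR adjusted p = 0.020), and it failed under 4 of 14 alternatives: total-count scaling, where it was 0.27 (adjusted p = 0.30), and without day 0 replicate 2, day 0 replicate 3 or the first day 7 column (adjusted p = 0.081, 0.080 and 0.055). Relative to Mtor it was lower at day 7, with log2 ratios of -0.52, -0.47 and -1.06 in the day 7 columns and 0.32, 0.10 and 0.17 at day 0. This ratio did not overlap between the days, with a difference of -0.88 (exact permutation p = 0.1, the smallest possible). Here too, overlap was not computed for ratios of other gene pairs.

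Ddit4, on chromosome 10 at 59949669 to 59951834, was uneven at day 7. It had 17.9, 58.2 and 33.3 CPM in the day 7 columns, against 27.9, 23.6 and 20.2 CPM at day 0. The first day 7 column lay below all day 0 libraries, and the others lay above them. Its coefficient of variation was 55.8% at day 7, the highest of the 10 genes, and 16.2% at day 0. The log2 fold change was 0.60 ± 0.38 (edgeR adjusted p = 0.20). It was 0.94 and passed without the first day 7 column (adjusted p = 0.015), and 0.07 without the second (adjusted p = 0.84). The log2 ratio of Ddit4 to Mtor was -2.03, -0.12 and -1.15 at day 7 and 0.03, -0.26 and -0.41 at day 0, which overlapped (exact permutation p = 0.3).

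Ordered by CPM per kilobase at day 7, Ddit4 came first with 20.8 ± 11.6, followed by Prkaa1 with 17.7 ± 3.10, Deptor with 15.4 ± 3.90 and Prkag1 with 13.0 ± 1.57 (SD, n = 3). The ranges of these neighbours overlapped, so their order is not resolved. Mtor, with 6.94 ± 0.587, and Prkab1, with 4.32 ± 0.593, each stood apart from their neighbours. Rptor, Prkab2, Prkag2 and Prkaa2 followed between 3.27 and 2.33, with overlapping ranges between neighbours. At day 0 the order was Ddit4 with 13.6 ± 2.20, Prkaa1 with 10.5 ± 0.324 and Prkag1 with 10.2 ± 0.819, of which Prkaa1 and Prkag1 overlapped. Deptor with 6.31 ± 0.578 and Prkab1 with 6.25 ± 0.538 overlapped too, and Mtor stood at 2.71 ± 0.0721. Rptor, Prkab2, Prkag2 and Prkaa2 came last, from 2.34 ± 0.164 to 0.113 ± 0.0414, with no overlap between neighbours. Prkaa2 was the lowest of the 10 at day 0, while at day 7 its range overlapped that of Prkag2. The order depends on the length used. With the longest transcript, the day 7 mean of Rptor (6.68) lay above that of Prkab1 (6.35), and that of Prkag2 (5.16) above that of Prkab2 (3.13). That of Prkag1 (17.1) lay above that of Deptor (16.0). At day 0, Rptor (4.78) then lay above Mtor (3.2), Prkab1 (9.17) above Deptor (6.55) and Prkag1 (13.4) above Prkaa1 (10.5). Prkag1 then came close to Ddit4 (13.6).

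Outside the 10 genes, 100 further genes of the pathway were set out in 9 lists, of which 92 passed the filter. Of these 40 rose and 15 fell, against 30.8% and 29.2% of all tested genes, and their median log2 fold change was 0.30. The list counts that follow are to be read against these shares. The lists were also chosen with earlier results of these data known, so a share above that of all genes is descriptive and no test. With total-count scaling 21 rose and 18 fell.

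Among the kinases and phosphatases that act on AMPK, 4 of 9 rose and 3 fell (median log2 fold change 0.29). Stradb, a pseudokinase partner of LKB1, rose 2.40-fold to 14.1 ± 0.638 CPM at day 7, against 5.88 ± 0.669 CPM at day 0 (edgeR adjusted p = 0.00020). Cab39l, an MO25 scaffold of the LKB1 complex, rose 1.77-fold. Camkk1, a calcium-dependent kinase, fell 2.32-fold to 0.928 ± 0.167 CPM at day 7, against 2.16 ± 0.185 CPM at day 0, and Ppm1f, a phosphatase, fell 1.70-fold. Stk11, which encodes LKB1 itself, rose 1.22-fold (edgeR adjusted p = 0.030), and Camkk2, the calcium-dependent kinase best known for acting on AMPK, fell 1.55-fold (edgeR adjusted p = 0.00056). The call of Stk11 was lost under 7 of 14 alternatives, among them any 1 of the day 0 replicates left out. Both were singled out after their values were seen.

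The AMPK-related kinases, which LKB1 also activates, were split, with 5 of 11 higher and 4 lower (median 0.13). Sik2, a salt-inducible kinase abundant in adipose tissue, rose 6.08-fold to 201 ± 54.9 CPM at day 7, against 33.1 ± 1.29 CPM at day 0 (log2 fold change 2.60 ± 0.20, edgeR adjusted p = 3.5e-05). Snrk rose 3.23-fold. Nuak1 fell 9.53-fold to 3.75 ± 1.04 CPM at day 7, against 34.6 ± 2.95 CPM at day 0 (log2 fold change -3.25 ± 0.22, edgeR adjusted p = 1.7e-05), and Nuak2 fell 7.96-fold. The NUAK kinases act on myosin phosphatase and cell adhesion. The day 7 and day 0 libraries of these 4 genes, named as the most changed, did not overlap, as for 68.3% of all tested genes.

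Known AMPK substrates mostly rose, 13 of 16 with 1 lower (median 1.54). Lipe, hormone-sensitive lipase, rose 53.8-fold to 501 ± 108 CPM at day 7, against 9.31 ± 1.47 CPM at day 0, and Acaca, acetyl-CoA carboxylase 1, rose 10.8-fold to 279 ± 31.6 CPM, against 25.8 ± 1.43 CPM (edgeR adjusted p = 3.4e-06 for each). Many of these substrates are lipid enzymes that belong to the adipocyte program. Tbc1d1, a Rab GTPase-activating protein of glucose transporter traffic, fell 1.98-fold to 17.1 ± 3.19 CPM at day 7, against 33.8 ± 3.17 CPM at day 0 (edgeR adjusted p = 0.0010).

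Of the other mTOR complex subunits 1 of 8 rose and 1 fell (median -0.17), against 60.0% of all tested genes called in either direction. Prr5, an mTORC2 subunit, rose 1.78-fold (edgeR adjusted p = 0.019). This call was lost with total-count scaling (edgeR adjusted p = 0.093) and without day 0 replicate 1, 2 or 3 (edgeR adjusted p = 0.062, 0.067 and 0.061). Telo2, which helps to assemble PI3K-like kinases, fell 1.57-fold. Rictor, the mTORC2 scaffold, stood at 51.4 CPM at day 7 and 56.7 CPM at day 0 (edgeR adjusted p = 0.26), and Mlst8, shared by both complexes, at 7.91 CPM and 9.55 CPM (edgeR adjusted p = 0.24). Rictor and Mlst8 were singled out with their values known. Without the third day 7 column 2 of the 8 rose, and without the first 2 fell.

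In the TSC and Rheb list 2 of 5 rose and 1 fell. Rheb, the GTPase that activates mTORC1, rose 1.59-fold to 62.9 ± 14.5 CPM at day 7, against 39.6 ± 2.07 CPM at day 0 (edgeR adjusted p = 0.0093), and Tbc1d7, a TSC complex subunit, rose 1.56-fold. Rises in this list ran from 1 without day 0 replicate 1 or 2 to 3 without the third day 7 column. Both calls were lost with total-count scaling (edgeR adjusted p = 0.13 and 0.16), and that of Tbc1d7 also without day 0 replicate 1 or 2. Rhebl1, a Rheb paralog, fell 2.03-fold from low levels, with 26 counts in total at day 7 and 59 at day 0 (edgeR adjusted p = 0.033). This call was lost under 7 of the 13 alternatives that tested it, with DESeq2 (adjusted p = 0.087), with no filter, without any 1 of the day 0 replicates and without the second or the third day 7 column. Among the Rag GTPases, Ragulator and folliculin genes, which carry the amino acid signal at the lysosome, 2 of 11 rose and 1 fell (median 0.05). Slc38a9, a lysosomal arginine transporter, rose 1.75-fold, Fnip1, a folliculin partner, rose 1.42-fold, and Flcn, folliculin, fell 1.42-fold. The number of rises ran from 1 to 4 leaving out each library. It was 1 without any 1 of the day 0 replicates or the first day 7 column and 4 without the third. With total-count scaling 0 of the 11 rose and 2 fell. The call of Fnip1 was lost under 6 of 14 alternatives, and that of Slc38a9 with total-count scaling (edgeR adjusted p = 0.063).

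Of the GATOR, KICSTOR and amino acid sensor genes 5 of 17 rose and 2 fell (median 0.07). Depdc5 and Nprl3, subunits of GATOR1, which inhibits the Rag GTPases, rose 1.58-fold and 1.43-fold. Sesn3 and Sesn2, sestrins that restrain mTORC1, fell 1.80-fold and 1.54-fold. Rises numbered 0 with total-count scaling, 1 without day 0 replicate 3 and 2 without day 0 replicate 1 or 2. They numbered 3 without the first day 7 column and 3 with DESeq2. Falls ran from 1 without day 0 replicate 2 to 3 without the second or the third day 7 column. The call of Nprl3 was lost under 6 of 13 alternatives, that of Depdc5 with total-count scaling and that of Sesn3 without day 0 replicate 2 (edgeR adjusted p = 0.060). The list of other mTORC1 inhibitors shares the sestrins and had 1 of 8 higher and 2 lower (median -0.18). Its riser was Trib3, a pseudokinase that binds AKT, with 117, 177 and 93.8 CPM in the day 7 columns against 36.3, 32.1 and 35.6 CPM at day 0 (log2 fold change 1.9 ± 0.23, edgeR adjusted p = 0.00025). Without the third day 7 column 2 of these 8 rose, and without day 0 replicate 2 only 1 fell.

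Of the mTORC1 substrates and effectors 9 of 16 rose and 2 fell (median 0.56). Lpin1, the phosphatidate phosphatase lipin 1, rose 35.3-fold to 429 ± 91.1 CPM at day 7, against 12.1 ± 1.20 CPM at day 0 (edgeR adjusted p = 3.4e-06). Tfeb, a transcription factor of lysosome genes, rose 3.77-fold, while its relative Tfe3 fell 1.59-fold and Maf1, a repressor of RNA polymerase III, fell 1.31-fold. The call of Maf1 was lost without any 1 of the day 0 replicates and without the second day 7 column (edgeR adjusted p = 0.068 to 0.10), and the list had 4 falls without the first day 7 column. With total-count scaling 4 of these 16 rose.

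**Figure D5:**
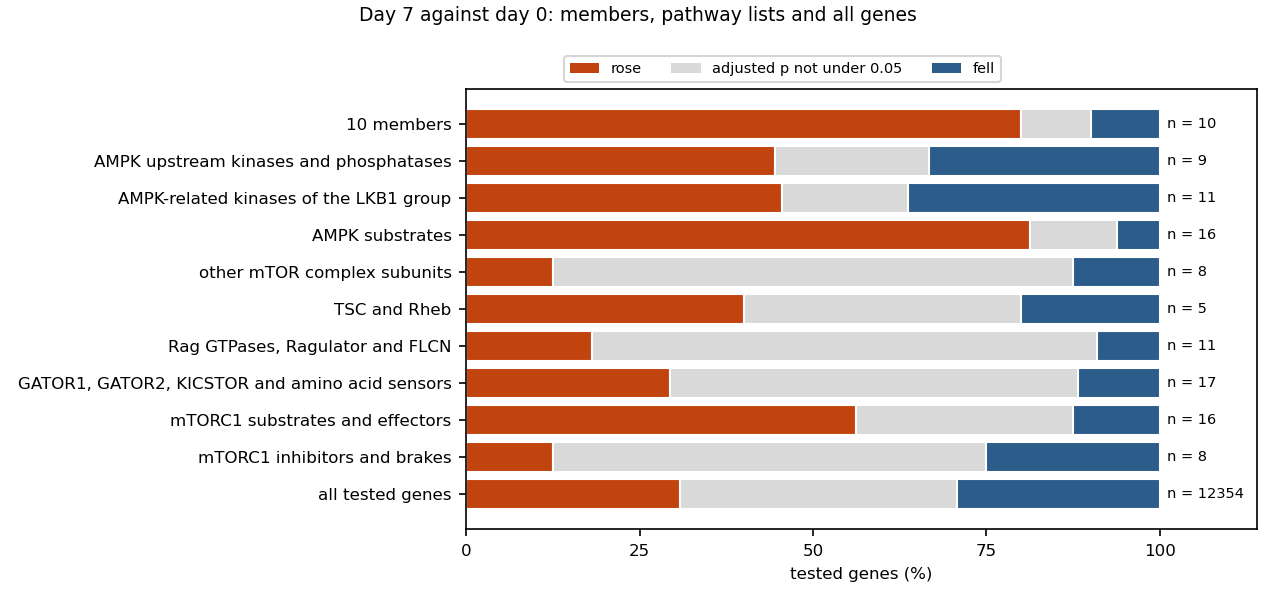
Share of tested genes that rose, did not pass or fell at day 7 against day 0, for the 10 genes, each pathway list and all 12354 tested genes, with n at the right. The 10 genes and the AMPK substrates have the highest shares of rises, at 8 of 10 and 13 of 16, against 30.8% of all tested genes. Genes and lists were chosen with earlier results of these data known, so the shares are descriptive.

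The genes nearest in pattern were sought among the 8763 tested genes that averaged 5 CPM or more, by the root mean square difference of centred log2(CPM + 1) values over the 6 libraries. Nearest to Prkaa2 were Jarid2 and Gnpat, at 0.157 and 0.166, with log2 fold changes of 3.78 and 3.48. Nearest to Prkab1 were Zfp442, Irf2bp1 and Zfp777, at 0.0566, 0.0588 and 0.0588, with log2 fold changes of -0.62, -0.47 and -0.50. The libraries form only 2 groups, so the measure gives most weight to the difference between days. Adding 1 to the CPM shrinks this difference for Prkaa2, which had 0.584 to 1.24 CPM at day 0. The log2 fold changes of its neighbours thus lay below its own of 4.31.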

How the data were processed

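The values deposited by the authors were read as estimated counts, from the values themselves, since library totals differ. Trim Galore 0.6.7, STAR 2.7.10a, Salmon 1.9.0 and build GRCm38 are named in the submitters' processing notes, while the sources used here give neither the role of each tool nor the annotation. Values of 10 further columns beside the table were not used. Counts were rounded, reduced by filterByExpr with its minimum count of 10 and total of 15, scaled by TMM and compared with edgeR 4.0.16 (R 4.3.3) by group only, with Benjamini-Hochberg adjustment over all 12354 genes tested. The standard error is the log2 fold change over the square root of F. All counts of the 10 genes were whole within 0.01. Gene positions and lengths are from GENCODE M21 (GRCm38). Ratios use counts plus 0.5.

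Depth ran from 7655822 to 16987076 counts, which leaves low genes with few counts.

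Protein sequences, planned for the paralogs, were not used here. The 10 genes and the lists were chosen with earlier results of these data known, as was the search for promoter motifs. The text names all 10 genes, Prkag3 and, from each list, up to 2 called genes most changed in each direction. Stk11, Camkk2, Rictor and Mlst8 stand outside this rule and were named with their values known. Of 139 list entries, markers included, 135 matched a row. The alternatives comprised scaling by RLE, by the upper quartile and by total counts, filters, DESeq2 1.42.0, limma-voom (limma 3.58.1), removal of the 10 most abundant rows and leaving out each library.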

Additional observations from a re-analysis of the deposited data

How the results depend on the processing

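Of the 10 genes, Prkaa1, Prkaa2, Prkab2, Prkag2, Mtor and Deptor kept their direction and passed under all 14 alternatives, and none of the 10 turned its direction. Leaving out each library, 6 to 8 rose and 0 to 1 fell, and among the 92 other pathway genes 29 to 47 rose and 11 to 17 fell. With total-count scaling 21 of these 92 rose, against 40 with TMM, and the share of rises among all called genes was 36.9%, against 51.3%. The median of all tested genes then lay at -0.21 on the log2 scale, against 0.02. The log2 difference of the Deptor to Mtor ratio ran from -0.26 to 0.17 leaving out each library, and turned to 0.17 without the first day 7 column. The other ratio differences ran from 3.35 to 3.85 (Prkaa2 to Prkaa1), 1.16 to 1.47 (Prkab2 to Prkab1), 1.23 to 1.58 (Prkag2 to Prkag1), -0.99 to -0.69 (Rptor to Mtor) and -1.38 to -0.42 (Ddit4 to Mtor). The share of Prkag2 differed between days by 9.70 percentage points, and by 12.8 with the longest transcript as length. No paired analysis was possible because the day 7 columns all carry the number 1. Low counts limit Prkaa2 at day 0 and Prkag3 on both days.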

Other observations

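Antisense genes overlap the exons of several of the 10 genes. B130046B21Rik shares 950 exonic bases with Prkag1, Rptoros 84 with Rptor and Prkag2os1 142 with Prkag2, and each had 0 counts in all 6 libraries. Gm9920 shares 303 exonic bases with Deptor and reached 18 counts in total at day 7 and 9 at day 0, too few to be tested.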
